A study of Arabidopsis thaliana with 6 samples.

Results

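Salicylic acid is a plant hormone of immunity, and its genes were read here in fresh seeds of Arabidopsis thaliana from wild-type Columbia-0 (Col-0, called the wild type) and from the asf1a1b mutant (called the mutant), with 3 RNA-seq libraries per genotype. The set holds 10 genes of the 32833 in the deposited table: SID2 (also called ICS1), ICS2, EDS5, PBS3 and EPS1 of the isochorismate route, and SARD1, CBP60G, NPR1, PAD4 and EDS1, which regulate the hormone's synthesis or carry its signal. The set was chosen because SID2 was much lower in asf1a1b than in Col-0. The difference between the genotypes in the 10 genes is therefore given as a description, with each library's value and no p-value. The asf1a1b mutant is named for ASF1A and ASF1B, both genes of a histone chaperone that hands histones H3 and H4 to chromatin. The sources used here do not give its alleles or how many lines it stands for. Both genotypes were grown on soil in long days, and seeds were taken within a day of harvest. The labels also mention cold stratification, and whether the sequenced seeds had received it is not settled by them. Whether replicate libraries came from separate plants or harvests is not labelled, and the p-values therefore cover the spread between libraries alone, which may be technical.

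Arabidopsis makes most of its defence-related salicylic acid from chorismate, the end product of the shikimate pathway. In the plastid SID2 and its homologue ICS2 turn chorismate into isochorismate, EDS5 exports isochorismate to the cytosol, PBS3 joins it to glutamate, and the product falls apart into salicylic acid, a step that EPS1 speeds up. SARD1 and CBP60G are related transcription factors that bind the SID2 promoter, EDS1 and PAD4 are lipase-like partners that act upstream of salicylic acid in immunity, and NPR1 binds the hormone and works with TGA transcription factors at its target genes. The pathway is best known from infected leaves.

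Values are rescaled TPM, the deposited per-length values whose totals differ between libraries, and read numbers were recovered from them. Recovered reads per library ran from 44306633 to 47993613 in the wild type and from 42771291 to 56017386 in the mutant, and mutant replicate 2 was the deepest. More genes had a read in the mutant (21559 to 23720) than in the wild type (20736 to 20868). ASF1A had 16.7 ± 1.23 rescaled TPM in the wild type and 2.33 ± 0.237 in the mutant (SD, n = 3; limma adjusted p = 0.00022), and ASF1B had 2.97 ± 1.21 and 0.256 ± 0.0902 (SD, n = 3; limma adjusted p = 0.00276), so both targeted genes were low in every library labelled asf1a1b. Storage protein, oleosin and Em genes of the embryo summed to between 68829 and 108831 rescaled TPM per library, and the endosperm gene EPR1 had between 6904 and 11131, so the markers go with the seed label. The libraries are of whole seeds, and a smaller share of cells of one type cannot be told apart from less RNA per cell.

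The promoters of SID2 and ICS2 are shown because these enzymes carry out the same reaction and had the most different levels of the route in the wild type. Each window of 300 bases runs from 250 bases before the annotated start to 50 after it, read from TAIR10.1 with the RefSeq annotation. SID2 is at chr1:28070045-28070344 and ICS2 at chr1:6515123-6515422, both on the plus strand. Capitals mark every match, on either strand, to TTGAC (the core of the W-box, bound by WRKY factors), TGACG (TGA factors), CACGTG (the G-box), CATGCA (the RY element of seed genes), CGCGT (CAMTA factors), GAAATT (CBP60G and SARD1) or GGNCC (TCP factors).
SID2: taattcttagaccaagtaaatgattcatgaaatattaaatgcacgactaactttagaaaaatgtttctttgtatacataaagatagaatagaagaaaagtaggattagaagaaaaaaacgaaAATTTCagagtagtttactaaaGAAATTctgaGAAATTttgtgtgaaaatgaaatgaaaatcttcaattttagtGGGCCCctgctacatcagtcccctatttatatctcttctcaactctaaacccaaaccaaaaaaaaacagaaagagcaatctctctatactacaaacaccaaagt
ICS2: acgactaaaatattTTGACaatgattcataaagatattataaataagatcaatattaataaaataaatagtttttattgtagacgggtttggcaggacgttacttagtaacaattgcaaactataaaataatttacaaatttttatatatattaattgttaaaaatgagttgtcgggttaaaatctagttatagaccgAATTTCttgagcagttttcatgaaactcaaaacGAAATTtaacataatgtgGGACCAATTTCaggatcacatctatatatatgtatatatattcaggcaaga
GAAATT stood 3 times in each of these windows, and GGNCC was present in both, with GGGCCC in SID2 holding a pair of overlapping matches. SID2 held no TTGAC in its window, and ICS2 held 1. Across 27443 promoter windows of this length GAAATT was found in 36.7% and GGNCC in 31.2%, so neither is rare.

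SID2 and ICS2 were the only members with GAAATT, and GGNCC was found in them and in PAD4. The windows of 7 of the 10 members held TTGAC, those of ICS2, EDS5, EPS1, SARD1, CBP60G, PAD4 and EDS1, against 50.5% of all promoters. TGACG, which shares its first 4 letters with the end of TTGAC and can overlap it, was found in SARD1 and CBP60G (23.1% of all promoters). CGCGT was found in SARD1 alone (8.70% of all promoters). CACGTG (7.68% of all promoters) and CATGCA (9.72%) were found in no member. A match is a description of these letters and not a bound site.

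SID2 (AT1G74710, chromosome 1, 28070295 to 28074177 on the plus strand, 12 exons, EDS16 in RefSeq) was the most abundant member in wild-type seeds and the one with the greatest difference. It had 11.216, 21.372 and 15.224 rescaled TPM in wild-type replicates 1, 2 and 3, from 827, 1531 and 1177 reads. In mutant replicates 1, 2 and 3 it had 1.255, 0.862 and 0.703, from 81, 79 and 55 reads. The groups lay far apart, with the lowest wild-type library well above the highest mutant library. The means were 15.9 ± 5.12 in the wild type and 0.940 ± 0.284 in the mutant (SD, n = 3), so the wild-type mean was 17.0 times the mutant mean, and between 14.1 and 20.4 times when any 1 library was left out. Between libraries of the same replicate number the wild-type value was 8.94, 24.8 and 21.7 times the mutant value. On the log2(value + 1) scale the difference was -3.09 ± 0.23 (SE), the sixth lowest of the 14663 genes with a mean of at least 1. By its level SID2 stood above 62.7% of those genes in the wild type and above 2.07% in the mutant. The authors' deposited table gives SID2 a log2 fold change of -4.11 and calls it down.

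ICS2 (AT1G18870, chromosome 1, 6515373 to 6519395 on the plus strand, 15 exons) was almost unread. It had 0 reads in all 3 wild-type libraries, and 3 counts over the group, the limit that a count of 0 allows, would be 0.0140 rescaled TPM. In mutant replicates 1, 2 and 3 it had 0, 2 and 1 reads. Nearly all isochorismate synthase reads were thus of SID2, in the mutant as in the wild type. The coding sequences of SID2 and ICS2 are 79.6% identical over 1677 aligned bases, with no identical run longer than 23 bases. ICS2 also shares 87 of its 2099 exon bases with AT1G18871 on the opposite strand, which had 0 reads.

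**Figure D1:**
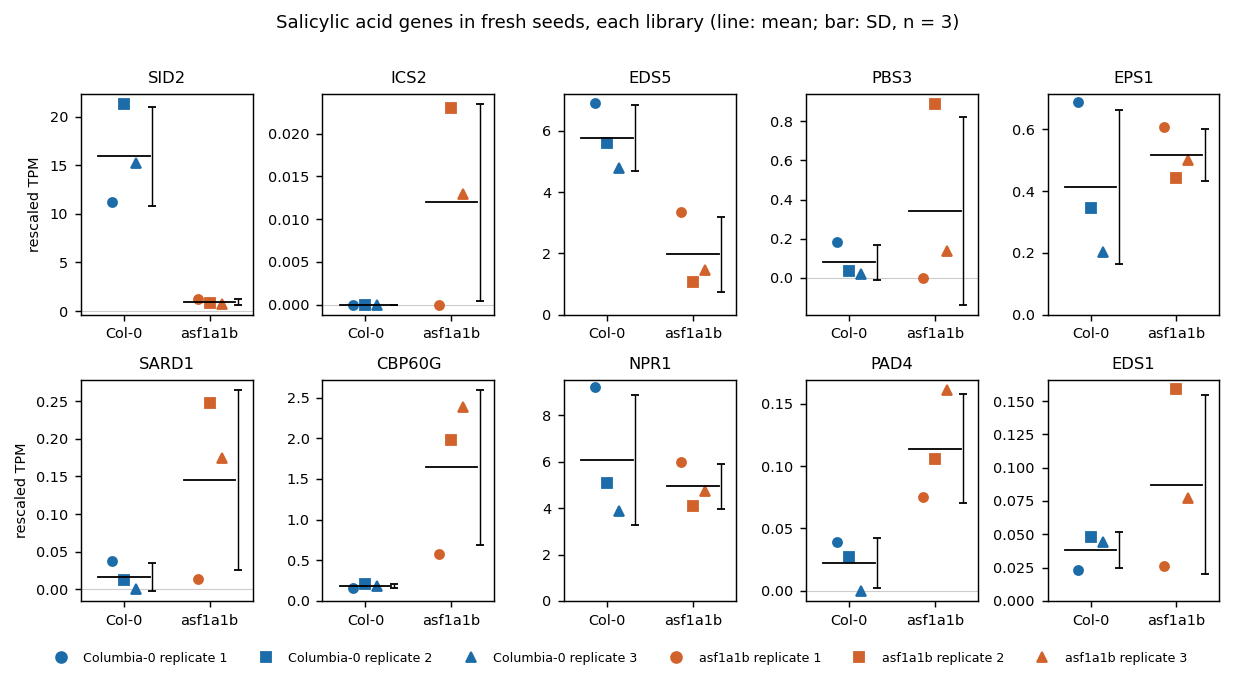
Rescaled TPM of the 10 genes in each library, 1 panel per gene with its own linear vertical scale; circles, squares and triangles are replicates 1, 2 and 3, lines are means and bars SD (n = 3). SID2 and EDS5 lie higher in all wild-type libraries, CBP60G and PAD4 in all mutant libraries, and the groups of the other 6 genes overlap.

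EDS5 (AT4G39030, chromosome 4, 18185437 to 18189224 on the plus strand, 12 exons), the transporter of the next step, was also lower in the mutant. It had 6.904, 5.613 and 4.776 rescaled TPM in wild-type replicates 1, 2 and 3, from 528, 417 and 383 reads, and 3.36, 1.063 and 1.467 in the mutant, from 225, 101 and 119 reads. The groups did not overlap, and mutant replicate 1 lay nearest to the wild type. The means were 5.76 ± 1.07 and 1.96 ± 1.23 (SD, n = 3), and the wild-type mean was 2.94 times that of the mutant. That ratio was 4.56 without mutant replicate 1 and 2.39 without mutant replicate 2. The log2(value + 1) difference was -1.26 ± 0.28 (SE), and in the authors' deposited table it is -1.58, called down. EDS5 shares 213 of its 2261 exon bases with AT4G39040 on the opposite strand. Without a known strand setting reads there cannot be assigned, and AT4G39040 itself had 17.0 ± 1.29 and 14.2 ± 2.17 rescaled TPM (SD, n = 3; limma adjusted p = 0.203).

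The cytosolic steps were read at low levels. PBS3 (AT5G13320, chromosome 5, 4267456 to 4271064 on the plus strand with 5 exons) had 0.181, 0.035 and 0.022 rescaled TPM in wild-type replicates 1, 2 and 3, and 0, 0.89 and 0.138 in the mutant. Its groups overlapped, with 16, 3 and 2 reads in the wild type and 0, 98 and 13 in the mutant. The mutant mean was 4.32 times the wild-type mean with all libraries and 0.870 times without mutant replicate 2, so that 1 library sets its direction. EPS1 (AT5G67160, chromosome 5, 26797596 to 26799265 on the minus strand with 1 exon) had 0.69, 0.346 and 0.203 rescaled TPM in the wild type and 0.607, 0.442 and 0.501 in the mutant. From 39, 19 and 12 against 30, 31 and 30 reads, the mutant values lay inside the wild-type range. Summed over SID2, ICS2, EDS5, PBS3 and EPS1, the route had 19.0 to 27.4 rescaled TPM in the wild type and 2.82 to 5.22 in the mutant, a sum made mostly of SID2 and EDS5.

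Of the related transcription factors that bind the SID2 promoter, CBP60G was higher in every mutant library, while the groups of SARD1 overlapped. CBP60G (AT5G26920, chromosome 5, 9475679 to 9478777 on the plus strand with 5 exons) had 0.154, 0.211 and 0.183 rescaled TPM in wild-type replicates 1, 2 and 3, and 0.571, 1.981 and 2.382 in the mutant. These came from 12, 16 and 15 reads against 39, 192 and 197. Every mutant library was above every wild-type library, and replicate 1 was the lowest of the mutant. The means were 0.183 ± 0.0285 and 1.64 ± 0.951 (SD, n = 3), a ratio of 9.0 that ran from 6.99 without mutant replicate 3 to 11.9 without mutant replicate 1. Its mean over all libraries, 0.914, lay just under the filter of 1, so it did not enter the test. The authors' deposited table lists it at a log2 fold change of 3.16, called up.

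SARD1 (AT1G73805, chromosome 1, 27744790 to 27749248 on the minus strand, 7 exons) had 3, 1 and 0 reads in the wild type and 1, 25 and 15 in the mutant. Its rescaled TPM were 0.037, 0.013 and 0 in the wild type and 0.014, 0.248 and 0.174 in the mutant, and the groups overlapped through replicate 1. SARD1 shares 441 of its 2397 exon bases with GIP2 on the opposite strand, for which 0 reads were recovered in the wild type and 4 in the mutant. The coding sequences of SARD1 and CBP60G are 63.9% identical over 1282 aligned bases, and the longest identical run is 10 bases.

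NPR1 (AT1G64280, chromosome 1, 23852748 to 23855658 on the minus strand, 4 exons), which carries the signal of the hormone, was read well in both genotypes. It had 9.23, 5.087 and 3.894 rescaled TPM in wild-type replicates 1, 2 and 3, from 816, 437 and 361 reads, and 5.968, 4.078 and 4.747 in the mutant, from 462, 448 and 445 reads. All mutant values lay within the wild-type range. The means were 6.07 ± 2.80 and 4.93 ± 0.958 (SD, n = 3), and the log2(value + 1) difference of -0.19 ± 0.27 (SE) was smaller than its error. Without wild-type replicate 1 the difference was 0.11, in the other direction. The authors' deposited table gives -0.32 for NPR1 and no call. Of its 2614 exon bases 214 are shared with the noncoding AT1G08667, which had 0 reads, and 38 with a pseudogene, AT1G64270.

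The lipase-like pair was close to unread in wild-type seeds. PAD4 (AT3G52430, chromosome 3, 19431095 to 19434450 on the plus strand with 2 exons) had 3, 2 and 0 reads in the wild type and 5, 10 and 13 in the mutant, or 0.039, 0.027 and 0 against 0.075, 0.106 and 0.161 rescaled TPM. Its groups did not overlap, at a handful of reads per library. EDS1 (AT3G48090, chromosome 3, 17755329 to 17758147 on the minus strand, 4 exons) had 2, 4 and 4 reads in the wild type and 2, 17 and 7 in the mutant. Its values of 0.023, 0.048 and 0.044 rescaled TPM in the wild type and 0.026, 0.159 and 0.077 in the mutant overlapped. The next gene, AT3G48080, lies 138 bases away on the same strand. Its coding sequence is 84.0% identical to that of EDS1 over 1859 aligned bases, with an identical run of 44. Whether reads were split between the pair was not tested, so both values are uncertain. AT3G48080 had 14, 10 and 12 reads in the wild type and 24, 52 and 56 in the mutant, and it overlaps AT3G48070 on the opposite strand by 503 exon bases.

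By level per length, the members fell in another order in each genotype. In the wild type SID2 was above NPR1 in every library, NPR1 and EDS5 overlapped, and EDS5 was above EPS1 in every library. Below EPS1 came CBP60G, PBS3, EDS1, PAD4 and SARD1, whose neighbours in the order overlapped, and ICS2 at 0. In the mutant NPR1 was highest and above EDS5 in every library. EDS5, CBP60G and SID2 followed and overlapped from one to the next. SID2 was above EPS1 in every library. PBS3, SARD1, PAD4 and EDS1 came next, each overlapping its neighbour, and ICS2 was below EDS1 in every library.

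Of the 10 members, 3 (SID2, EDS5 and NPR1) had a mean of at least 1 and were tested, and 7 lay below that filter. SID2 and EDS5 passed at a limma adjusted p under 0.05 and NPR1 did not. Of all 14663 genes tested, 30.6% passed, 16.1% as higher and 14.5% as lower in the mutant. With no filter on the level SID2, EDS5 and CBP60G passed, as did 19.6% of all genes then tested. In the authors' deposited table, which lists SID2, EDS5, CBP60G and NPR1, the first 3 have a call, as do 8.76% of its genes. The set was chosen for this difference, so nothing is read from these counts. EDS5 did not pass when wild-type replicate 2, mutant replicate 2 or mutant replicate 3 was left out. The groups of 4 members did not overlap, SID2 and EDS5 with lower and CBP60G and PAD4 with higher values in the mutant. Among genes with a read the groups of 38.9% did not overlap, 23.3% higher and 15.6% lower in the mutant. Among genes with a read and a mean under 1, where CBP60G and PAD4 lie, the groups of 22.4% stood apart as higher in the mutant and those of 5.5% as lower.

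**Figure D2:**
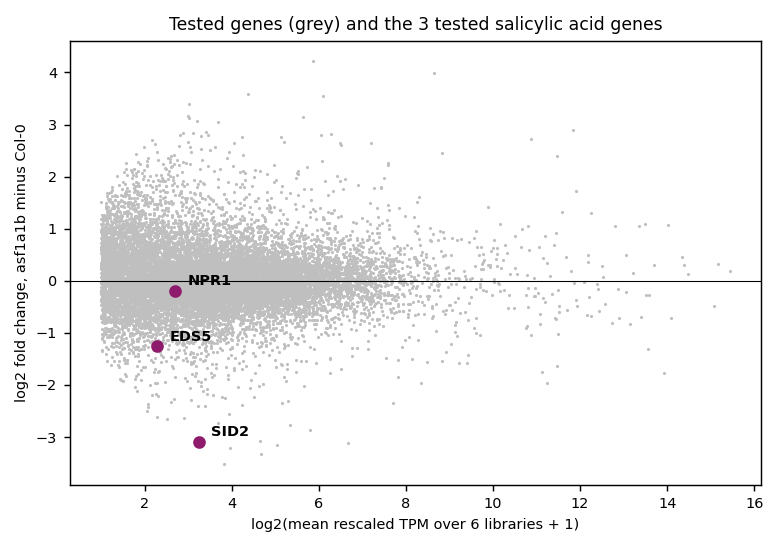
Log2 fold change (asf1a1b minus Col-0, on log2(value + 1)) against the log2 mean level over 6 libraries for all 14663 tested genes in grey, with SID2, EDS5 and NPR1 marked. SID2 lies at -3.09, near the lower edge of the cloud, EDS5 at -1.26 and NPR1 at -0.19, near 0.

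Of the genes on both sides of SID2 on the chromosome, 1 rose and the other did not pass the test. QKY, which begins 749 bases after SID2 on the same strand and encodes a C2-domain membrane protein, rose from 9.59 ± 1.69 rescaled TPM to 19.3 ± 1.72 (SD, n = 3; limma log2 fold change 0.95 ± 0.15, adjusted p = 0.00446). TRZ1, the tRNase Z gene 2871 bases before it, had 4.52 ± 0.544 and 2.96 ± 0.912 (SD, n = 3; limma log2 fold change -0.50 ± 0.18, adjusted p = 0.0748).

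The genes whose profile over the 6 libraries was most like that of SID2 were found by the root mean square difference of log2(value + 1) profiles, each centred on its own mean. In order they were JAZ4 (0.249), a jasmonate ZIM-domain repressor gene, AT3G53960 (0.253), annotated as a major facilitator superfamily protein, MSRB4 (0.294), a methionine sulfoxide reductase, RTL2 (0.304), an RNase III-like protein, and AT4G35160 (0.322), annotated as an O-methyltransferase. Likeness to SID2 selects genes that differ between the genotypes as it does. JAZ4 had 11.8 ± 2.43 rescaled TPM in the wild type and 1.04 ± 0.183 in the mutant, and RTL2 had 8.84 ± 0.553 and 0.566 ± 0.162 (SD, n = 3).

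Around the members, 93 genes in 10 lists cover the supply and other uses of chorismate, the making, modification and sensing of salicylic acid, and the response to it. Of these, 57 had a mean of at least 1 and were tested. In the mutant 11 were higher, 9 were lower and 37 did not pass, with a median log2 fold change of -0.03 beside 0.01 over all tested genes. Over all tested genes 30.6% passed, 16.1% as higher and 14.5% as lower, the shares to set beside the count of each list below. Among genes with a read and a mean under 1, the groups of 22.4% stood apart as higher in the mutant and of 5.5% as lower. The 20 list genes past the threshold became 8 without wild-type replicate 2, 13 without wild-type replicate 3, 10 without mutant replicate 2 and 9 without mutant replicate 3.

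**Figure D3:**
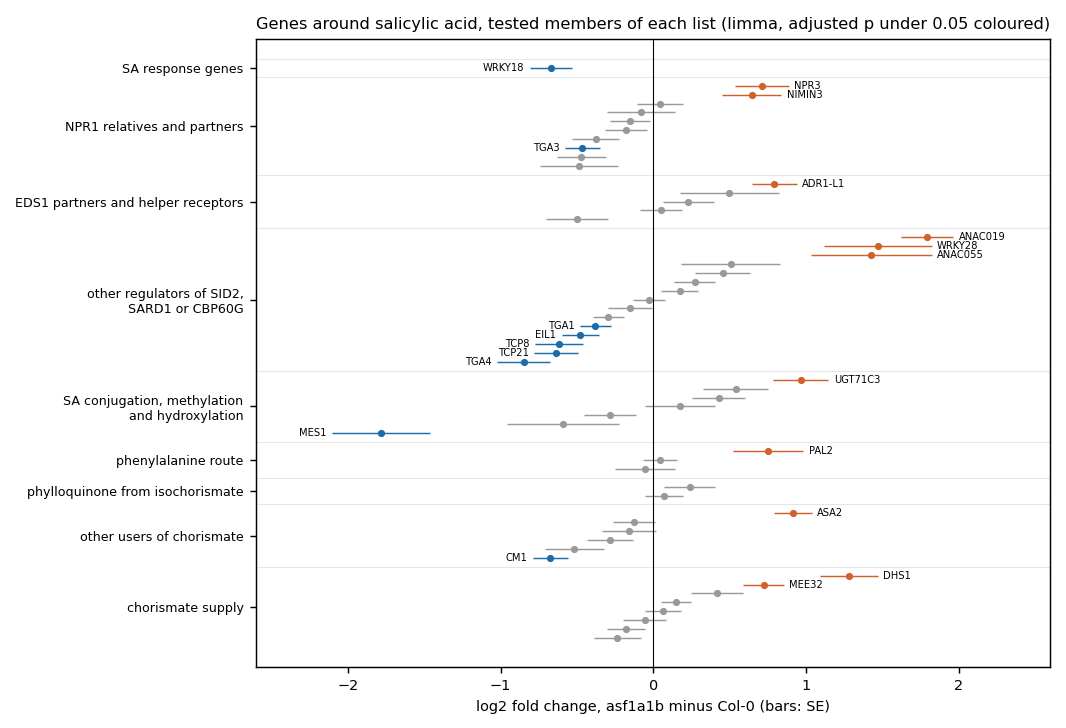
Log2 fold change (asf1a1b minus Col-0) with its SE for the 57 tested genes of the lists around salicylic acid, grouped by list, with genes past a limma adjusted p of 0.05 coloured and named. The 11 higher and 9 lower genes are spread over the lists, from MES1 at -1.78 to ANAC019 at 1.79.

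Supply of chorismate was measured by 9 genes, of which 8 were tested, 2 rose and 0 fell. DHS1, which catalyses the first step of the shikimate pathway, had 9.101, 11.637 and 15.367 rescaled TPM in the wild type and 26.261, 34.43 and 29.976 in the mutant (log2 fold change 1.28 ± 0.19, limma adjusted p = 0.0041). MEE32, an enzyme of the middle of the pathway, had means of 6.99 ± 1.14 and 12.1 ± 0.116 (SD, n = 3; limma adjusted p = 0.00775). Both groups of values were apart. DHS2, the most abundant first-step gene, had 145 ± 17.7 and 127 ± 4.3 (SD, n = 3; limma adjusted p = 0.295), and the summed level of the 9 genes overlapped between the genotypes at 241 to 274 in the wild type and 251 to 270 in the mutant. The EPSP synthase gene AT2G45300, below the filter, had 4, 18 and 18 reads in the wild type and 51, 162 and 111 in the mutant.

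Of the 6 genes for other users of chorismate, 1 rose and 1 fell. ASA2, a subunit of anthranilate synthase at the entry to tryptophan, rose from 2.65 ± 0.164 rescaled TPM to 5.90 ± 0.537 (SD, n = 3; limma log2 fold change 0.92 ± 0.12, adjusted p = 0.00279). CM1, a chorismate mutase at the entry to phenylalanine and tyrosine, fell from 6.43 ± 0.440 to 3.65 ± 0.113 (SD, n = 3; limma log2 fold change -0.68 ± 0.12, adjusted p = 0.00622). Phylloquinone, a vitamin K of the photosystem, is also made from isochorismate. Of its 6 genes 2 were tested and neither passed. Below the filter, ABC4 had 4, 6 and 2 reads in the wild type against 13, 35 and 25 in the mutant. AAE14 had 20, 23 and 36 against 46, 55 and 52. The groups of PHYLLO overlapped, at 4, 16 and 18 against 9, 31 and 6 reads, and DHNAT1 had no read in either genotype.

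The phenylalanine route, a second source of salicylic acid, had 5 genes, of which 3 were tested and 1 rose. PAL2, a phenylalanine ammonia-lyase, had 5.09, 2.509 and 2.696 rescaled TPM in the wild type and 7.509, 5.868 and 5.437 in the mutant (log2 fold change 0.75 ± 0.23, limma adjusted p = 0.0442). The PAL2 call was lost in 7 of the alternatives, with limma adjusted p up to 0.145. PAL4, the most abundant ammonia-lyase gene in these seeds, had 40.4 ± 12.3 and 37.9 ± 2.97 (SD, n = 3; limma adjusted p = 0.857). PAL1 was below the filter and had 5, 1 and 1 reads in the wild type and 22, 80 and 27 in the mutant.

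Conjugation, methylation and hydroxylation of salicylic acid were covered by 16 genes, of which 7 were tested, 1 rose and 1 fell. MES1, an esterase that frees salicylic acid from methyl salicylate, had 19.294, 9.97 and 7.614 rescaled TPM in the wild type and 3.526, 2.677 and 1.832 in the mutant (log2 fold change -1.78 ± 0.32, limma adjusted p = 0.00727). Its groups did not overlap. Reads of MES and UGT genes may be split between related copies. This was not checked here, so their single values are uncertain. UGT71C3, a glucosyltransferase that acts on methyl salicylate, rose from 1.34 ± 0.0181 to 3.65 ± 1.01 (SD, n = 3; limma log2 fold change 0.96 ± 0.18, adjusted p = 0.0083). The glucosyltransferase gene UGT74F2 was the most abundant of the list, at 186 ± 24.3 and 215 ± 61.4 (SD, n = 3; limma adjusted p = 0.594). DMR6, a salicylic acid hydroxylase gene, had 18.4 ± 10.9 and 10.8 ± 2.2 (SD, n = 3; limma adjusted p = 0.249). The hydroxylase gene DLO1 had 0 reads in the wild type and 0, 30 and 7 in the mutant. Of the 9 genes below the filter, the groups of 2 stood apart as higher in the mutant and of 0 as lower. These were SOT12, with 7, 9 and 15 reads in the wild type against 15, 83 and 66 in the mutant, and MES9. The reads of MES9 were 3, 3 and 1 against 4, 12 and 11. Among the genes below the filter that overlapped, UGT74F1 had 1, 6 and 7 reads in the wild type against 4, 4 and 3 in the mutant. BSMT1 had 9, 3 and 3 against 3, 5 and 7, and MES7 had 22, 1 and 6 against 12, 10 and 4.

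Transcription factors known to act on SID2, SARD1 or CBP60G went both ways. Of 16 genes 15 were tested, 3 rose and 5 fell, beside 16.1% higher and 14.5% lower over all tested genes. ANAC019, which represses SID2 in leaves treated with a jasmonate mimic, had 7.951, 6.641 and 6.63 rescaled TPM in the wild type and 21.337, 33.024 and 27.637 in the mutant (log2 fold change 1.79 ± 0.17, limma adjusted p = 0.00121). Its relative ANAC055 had 0.192, 0.276 and 0.11 in the wild type and 0.81, 5.169 and 1.935 in the mutant (log2 fold change 1.43 ± 0.40, limma adjusted p = 0.0315). The ANAC055 call was lost in 5 alternatives, with limma adjusted p up to 0.0909. Without mutant replicate 2 its mean lay below the filter, so it was not tested there. With means of 0.193 in the wild type and 2.64 in the mutant, ANAC055 reached the filter only through the mutant, where it is high. WRKY28, an activator of SID2, had 4.517, 2.157 and 1.882 in the wild type and 5.484, 9.711 and 14.315 in the mutant (log2 fold change 1.47 ± 0.35, limma adjusted p = 0.0195). It did not pass without wild-type replicate 2, wild-type replicate 3, mutant replicate 2 or mutant replicate 3, with limma adjusted p up to 0.0745.

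The 5 factors that fell were TGA4, TGA1, TCP21, TCP8 and EIL1. TGA4 and TGA1 promote the expression of SARD1 and CBP60G in infected leaves. TGA4 had 18.0 ± 2.6 and 9.61 ± 2.14 rescaled TPM (SD, n = 3; limma log2 fold change -0.85 ± 0.18, adjusted p = 0.0114) and did not pass without wild-type replicate 2 or mutant replicate 3, with limma adjusted p up to 0.0569. TGA1 had 71.3 ± 3.02 and 54.6 ± 2.63 (SD, n = 3; limma adjusted p = 0.0272). TCP21 and TCP8 bind the SID2 promoter, and EIL1 represses SID2 together with EIN3. On the log2(value + 1) scale the fold changes of TCP21, TCP8 and EIL1 were -0.64 ± 0.14, -0.62 ± 0.16 and -0.48 ± 0.12 (limma adjusted p = 0.0152, 0.0237 and 0.0228). TCP21 had 1.80 ± 0.302 and 0.794 ± 0.0685 rescaled TPM (SD, n = 3), a low level at which this scale understates the change. It reached the filter only through the wild type, where it is higher. TCP8 had 33.5 ± 6.08 and 21.4 ± 2.86, and EIL1 had 46.9 ± 2.32 and 33.5 ± 4.23 (SD, n = 3). EIN3 had 248 ± 47.3 and 337 ± 37.8 (SD, n = 3; limma adjusted p = 0.0894). The calls of TGA1, TCP21, TCP8 and EIL1 were not followed under the alternatives, so their stability is not known.

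Partners of EDS1 and the helper immune receptors had 8 genes, of which 5 were tested and 1 rose. The helper receptor ADR1-L1 rose from 5.21 ± 0.125 rescaled TPM to 9.87 ± 1.85 (SD, n = 3; limma log2 fold change 0.79 ± 0.15, adjusted p = 0.00779). SAG101, which pairs with EDS1 in place of PAD4, was below the filter and had 3, 5 and 4 reads in the wild type against 35, 64 and 52 in the mutant.

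Relatives and partners of NPR1 had 12 genes, of which 10 were tested, 2 rose and 1 fell. NPR3, a further receptor of salicylic acid, had 7.861, 5.997 and 6.935 rescaled TPM in the wild type and 10.121, 15.284 and 10.916 in the mutant (log2 fold change 0.71 ± 0.17, limma adjusted p = 0.0208). NIMIN3, whose protein binds NPR1, had a log2 fold change of 0.64 ± 0.19 (limma adjusted p = 0.0411), and TGA3 one of -0.47 ± 0.11 (limma adjusted p = 0.02). All 3 calls were lost under several alternatives, with limma adjusted p up to 0.0831 for NPR3, 0.14 for NIMIN3 and 0.0902 for TGA3. The repressor gene SNI1, below the filter, had 15, 13 and 13 reads in the wild type and 74, 86 and 70 in the mutant. NIMIN1, also below it, had overlapping groups, at 8, 3 and 0 against 5, 9 and 4 reads.

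Genes that salicylic acid induces in leaves were mostly unread in wild-type seeds. Of 12 only WRKY18 was tested, and it fell from 61.0 ± 6.84 rescaled TPM to 38.0 ± 4.73 (SD, n = 3; limma log2 fold change -0.67 ± 0.14, adjusted p = 0.0113); without wild-type replicate 2 the limma adjusted p was 0.0536. The other 11 lay below the filter, and 5 of them were read in the mutant alone, as were 25.8% of all genes with a read and a mean under 1. PR1, the pathogenesis-related gene most used as a marker of the hormone, had 0 reads in all wild-type libraries and 3, 54 and 19 in mutant replicates 1, 2 and 3. Its mutant mean of 0.708 ± 0.664 rescaled TPM (SD, n = 3) was at least 21.7-fold higher than the 0.0326 that 3 counts over the wild-type group would allow, and at least 10.7-fold higher without mutant replicate 2. PR2 had 0 reads in the wild type and 0, 15 and 6 in the mutant, and PR5 had 0 in the wild type and 1, 10 and 2 in the mutant. WRKY70 had 2, 0 and 0 reads against 1, 55 and 9, and the glutaredoxin gene GRX480 had 0, 1 and 1 against 0, 35 and 11. Of the rest of the list, WRKY53 had 9, 2 and 1 reads in the wild type and 2, 5 and 2 in the mutant, NUDT6 had 2, 4 and 0 against 1, 2 and 7, and WRKY54 had none in either. WRKY46 had 3, 3 and 0 reads against 5, 42 and 18. WRKY38 and WRKY62, read in the mutant alone, had only 0, 3 and 0 and 0, 0 and 1 reads there. In PR1, PR2, PR5, WRKY70 and GRX480 mutant replicate 2 had the most reads and replicate 1 the fewest of the mutant libraries. Depth ran the same way, with 42771291 recovered reads in mutant replicate 1, 52690725 in replicate 3 and 56017386 in replicate 2. The rescaled TPM of these genes had that order as well. The 3 genes that make N-hydroxypipecolic acid, the mobile partner of salicylic acid in systemic resistance, were all below the filter. FMO1 had 0 reads in the wild type and 0, 10 and 2 in the mutant, and ALD1 had 0 against 0, 1 and 0. The groups of AT5G52810 overlapped, at 7, 21 and 17 against 27, 35 and 17 reads.

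**Figure D4:**
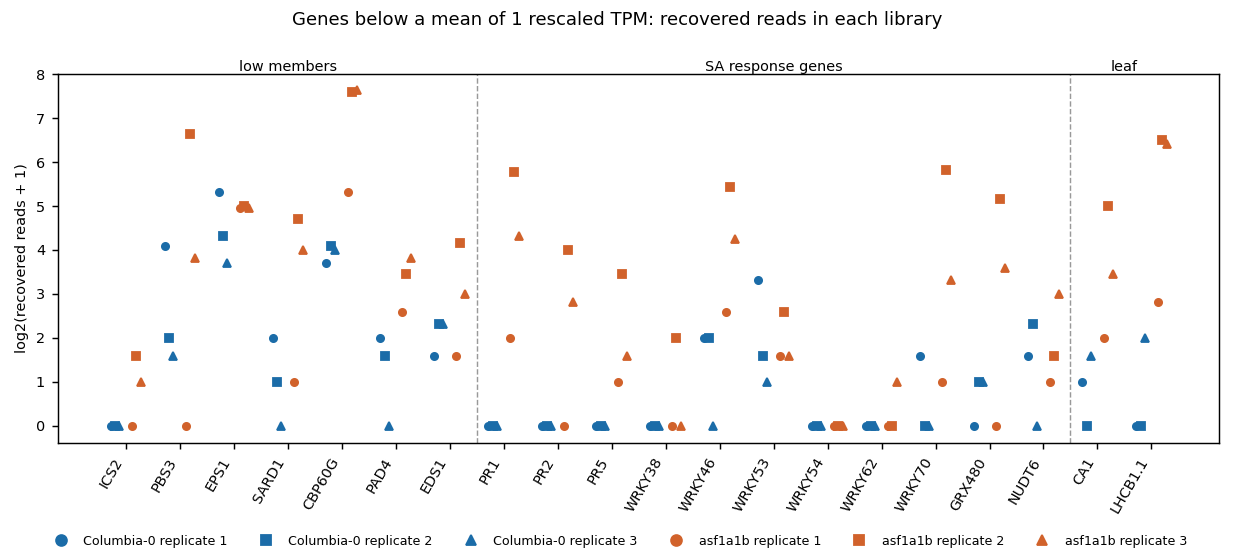
Recovered reads per library, on a log2(reads + 1) scale, for the 7 members below the filter, 11 salicylic acid response genes and the leaf markers CA1 and LHCB1.1; blue is Col-0, orange asf1a1b, and symbols are replicates 1, 2 and 3. Many wild-type points lie at 0, and in the genes with more reads in the mutant, EPS1 excepted, the orange square of replicate 2 or triangle of replicate 3 is the highest point.

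Over all low genes, more were read in the mutant. Of the 11056 genes with a read and a mean under 1, 25.8% were read in the mutant alone and 5.26% in the wild type alone. Over the pathway lists 36 genes were not tested. Of these 10 were read in the mutant alone, 4 had no read, and the groups of 13 did not overlap as higher in the mutant and of 0 as lower, beside 22.4% and 5.5% of all genes with a read and a mean under 1. The 5 leaf and silique wall markers summed to 20.4 to 35.0 rescaled TPM in the wild type and 61.8 to 105 in the mutant, with RBCS1A at 16.8 ± 7.21 and 71.0 ± 21.0 (SD, n = 3; limma adjusted p = 0.00581). Among them CA1 was at 0 reads in wild-type replicate 2 and LHCB1.1 in wild-type replicates 1 and 2, against 3, 31 and 10 and 6, 89 and 84 reads in the mutant, while RCA and GOX1 did not pass. LHCB1.1 has near-identical copies, and its value is uncertain. The 4 seed coat markers summed to 0.504 to 1.75 in the wild type and 4.41 to 6.97 in the mutant, most of it PER36. The part of leaf, silique wall or seed coat RNA in the values of the response genes was not tested.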

How the data were processed

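Whole-seed RNA of 3 Col-0 and 3 asf1a1b samples was sequenced, with groups from the sample titles. The submitters' processing notes name HISAT2 2.2.1, fastp 0.23.4 and the build TAIR10. The counter, annotation and strand setting were not given in the sources used here. What the authors deposited is a signal per gene, named TPM in the file, whose library totals differ (915126 to 1049698) and which is called rescaled TPM here, and a table of log2 fold changes, p-values and adjusted p-values for 15257 genes, in which the smallest absolute log2 fold change with a call is 1.50. The design foresaw counts or plain TPM; the values were tested as planned for TPM.

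Value times merged exon length (RefSeq, TAIR10.1) fell on whole multiples of a single step in each library. Between 99.3% and 99.4% of values under 200 reads lay within 0.1 of a whole number. Reads were recovered for 32548 genes, and 285 had no matched length. The recovery was checked on simulated reads. Whether reads or pairs were counted is not known. Floors use 3 counts and cover counting error only.

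Tests used limma 3.58.1 (R 4.3.3) on log2(value + 1) of genes whose mean over the 6 libraries was at least 1 (trend, genotype only, two-sided, Benjamini-Hochberg, threshold 0.05). This scale understates changes of low genes. Python 3.11.15, numpy 2.4.6, pandas 2.3.3, scipy 1.17.1, matplotlib 3.10.9 and Biopython 1.88 did the rest. Symbols, coordinates and promoters come from TAIR10.1. A planned comparison of proteins was made on coding sequences instead.

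The members and lists were chosen with earlier results of these data known. Named genes are the members, ASF1A, ASF1B, up to 4 genes per list past the threshold with the greatest change, neighbours of members and the 5 genes nearest to SID2 in profile. Other genes, such as PR1, TGA1, TCP21, TCP8, EIL1, PAL4 and SAG101, were named after their values were seen.

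Over 14663 genes the deviations from the group mean of libraries with the same number correlated at 0.427, 0.144 and 0.327 for replicates 1, 2 and 3. The correlation of asf1a1b replicate 2 with Col-0 replicate 3 was 0.381, above the same-number values of replicates 2 and 3. Whether the numbers pair the samples is therefore not settled, and the labels name no batch. The main test did not pair the libraries, and a replicate block was used only as an alternative. Alternatives were other pseudocounts, filters and scalings, no trend, a replicate block, limma-voom on recovered reads, each library left out and the authors' deposited calls. Limma-voom without a filter was added after seeing the data.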

Additional observations from a re-analysis of the deposited data

How the results depend on the processing

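The log2 fold change of SID2, for whose fall the set was chosen, ran from -2.87 to -4.14 over the alternatives, and nothing is read from its passing the threshold. Members past the threshold numbered 2 in the main test and 1 (SID2) with a mean of at least 5. They numbered 4 with limma-voom on recovered reads and no filter (CBP60G and PAD4 added, both higher), 3 with no filter (CBP60G added), and 1 to 3 with any 1 library left out. EDS5 kept its direction throughout, but did not pass at -1.27 without Col-0 replicate 2, at -1.03 with asf1a1b replicate 2 left out and at -1.16 with asf1a1b replicate 3 left out. NPR1 changed sign without Col-0 replicate 1, at 0.11, and lay between that and -0.42 (without Col-0 replicate 3) with any 1 library left out. The cause was not tested.

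Pathway list genes past the threshold numbered 20, 31 with limma-voom and no filter, 7 in the authors' deposited calls, and 8 to 22 with any 1 library left out. Without Col-0 replicates 2 and 3 in turn they numbered 8 and 13, and without asf1a1b replicates 2 and 3 in turn 10 and 9. Over all genes the count was 4494, against 2544 with a mean of at least 5, 1336 in the authors' deposited calls and 1767 to 4999 with any 1 library left out. The split of 2362 higher and 2132 lower was 2033 and 2632 under median-of-ratios scaling and 951 and 385 in the authors' calls. With the replicate block 5825 genes passed and the calls of SID2, EDS5 and NPR1 did not change, while 25 list genes passed. Of the single-gene values under the alternatives, 415 kept their direction and, where tested, their call, or stayed within the replicate spread. Of the rest 37 lost the call, 9 untested ones moved beyond that spread and 2 changed sign, NPR1 and the untested PBS3 (0.26 with all libraries and -0.01 without asf1a1b replicate 2). The members below the filter rest on few wild-type reads, from 0 for ICS2 to 70 for EPS1 summed over the group. Counting error therefore weighs on their values. In the mutant CBP60G had more, at 428 reads.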
